A study of Mus musculus with 6 samples.

Results

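The genes described are those of glutathione metabolism and of the antioxidant program of NRF2, measured in kidney cortex of mice with and without the C3a receptor. They were chosen by name from the gene names of the array: the glutathione transferases (Gst classes alpha, kappa, mu, omega, pi, theta and zeta, and Mgst), glutathione peroxidases (Gpx), peroxiredoxins (Prdx), thioredoxin reductases (Txnrd) and superoxide dismutases (Sod), with Gclc, Gclm, Gss, Gsr, Ggt1, Nqo1, Hmox1, Srxn1, Cat, Nfe2l2 and Keap1. The rule gave 56 genes, with 84 probes, of 37325 named genes on the array. The families were picked with earlier results of these data known. Each sample was male C57BL/6 kidney cortex RNA on 1 one-colour Agilent array, and there were 3 arrays from wild-type mice (WT) and 3 from C3aR-/- mice, which lack the receptor of the complement fragment C3a. Both genotypes came from the control arm, which per the labels began at 8 weeks of age on normal chow with 10% of its calories from fat, received vehicle without streptozotocin and ended 20 weeks after induction. The sources used here do not say how the C3ar1 deletion was made. Nothing in the labels says whether samples of a genotype came from different animals, and the p-values then cover only the variation among these arrays, which may be technical.

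The transcription factor NRF2, encoded by Nfe2l2, is held in the cytoplasm and sent for degradation by KEAP1, and it enters the nucleus when oxidants or electrophiles modify KEAP1. There it pairs with small MAF proteins on antioxidant response elements and raises the transcription of genes that make glutathione, attach it to electrophiles and regenerate thioredoxin. The kidney proximal tubule holds much of the body's glutathione-handling capacity, and it releases plasma glutathione peroxidase into the blood.

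Levels are given as the log2 processed signal of the probe minus the 75th percentile of its array, so 0 is the array's 75th percentile, and a change is the C3aR-/- mean minus the WT mean on that log2 scale. Signals of different probes are not compared as transcript levels. Where a gene had several probes, the brightest stood for it. A gene was tested when, in WT or in C3aR-/- cortex or in both, all 3 arrays read that probe well above background, and it was called when its adjusted p from limma, with Benjamini-Hochberg adjustment over all 20553 genes tested, was under 0.05 (two-sided).

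Between 56.5% and 59.3% of the 59305 transcript spots of an array were well above background, and 0 spots were saturated. The WT arrays lay on 1 slide and the C3aR-/- arrays on another, so slide and genotype cannot be told apart in any value below. C3aR-/- replicate 1 held 145 non-uniform spots against 2 to 8 on the other arrays. The C3ar1 probe was well above background on 1 array, WT replicate 1 (level -5.03), and lay between -6.17 and -5.47 on the others, so it gives no check of the genotype labels. All 8 markers listed for the first proximal tubule segments passed the filter, as kidney cortex requires. The RNA came from whole cortex, where fewer cells of a type and less RNA per cell cannot be told apart.

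The antioxidant genes differed little between the genotypes. Of the 50 members tested, 4 were higher in C3aR-/- cortex and 0 lower, which is 8% called where 14.4% of all genes tested were called, 7.07% higher and 7.30% lower. The 4 were Gsto1, Gstm7, Gpx1 and Gpx6. At an unadjusted limma p under 0.05 there were 11 members higher and 2 lower, against 33.4% of all genes in either direction. The members' changes ran from -0.38 to 0.61, with a median of 0.04 against 0.02 over all genes, and 33 were positive and 17 negative, where 10814 of all 20553 genes were positive. Their median absolute change was 0.08 against 0.18 over all genes tested. A change of at least 1, which 2.59% of all genes reached, occurred in 0 members.

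Most members were read by bright probes. For 44 members (88%) the mean level lay above the 75th percentile, as it did for 48.4% of all genes tested, and the median SE of a change was 0.076 over the members and 0.096 over all genes. Among the 9940 genes above it the median absolute change was 0.14 and 13.9% were called, and among the 44 members above it the median absolute change was 0.08 and 3 were called. For 29 of the 50 members the change was under 0.1 in size, and for 40 the 95% interval of the change lay within 0.5 on either side of 0. The arrays of the genotypes did not overlap in 20 members (40%), 15 of them higher and 5 lower in C3aR-/- cortex, where the share over all genes tested was 41.3%.

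None of the 4 calls held in every fit with 1 array left out. Without WT replicate 1, WT replicate 2 or C3aR-/- replicate 2, 0 members were called. Without WT replicate 3 or C3aR-/- replicate 3 the only member called was Gsto1, and without C3aR-/- replicate 1 it was Gstm7. The share of all genes called fell with them, to between 3.59% and 8.25%.

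**Figure D1:**
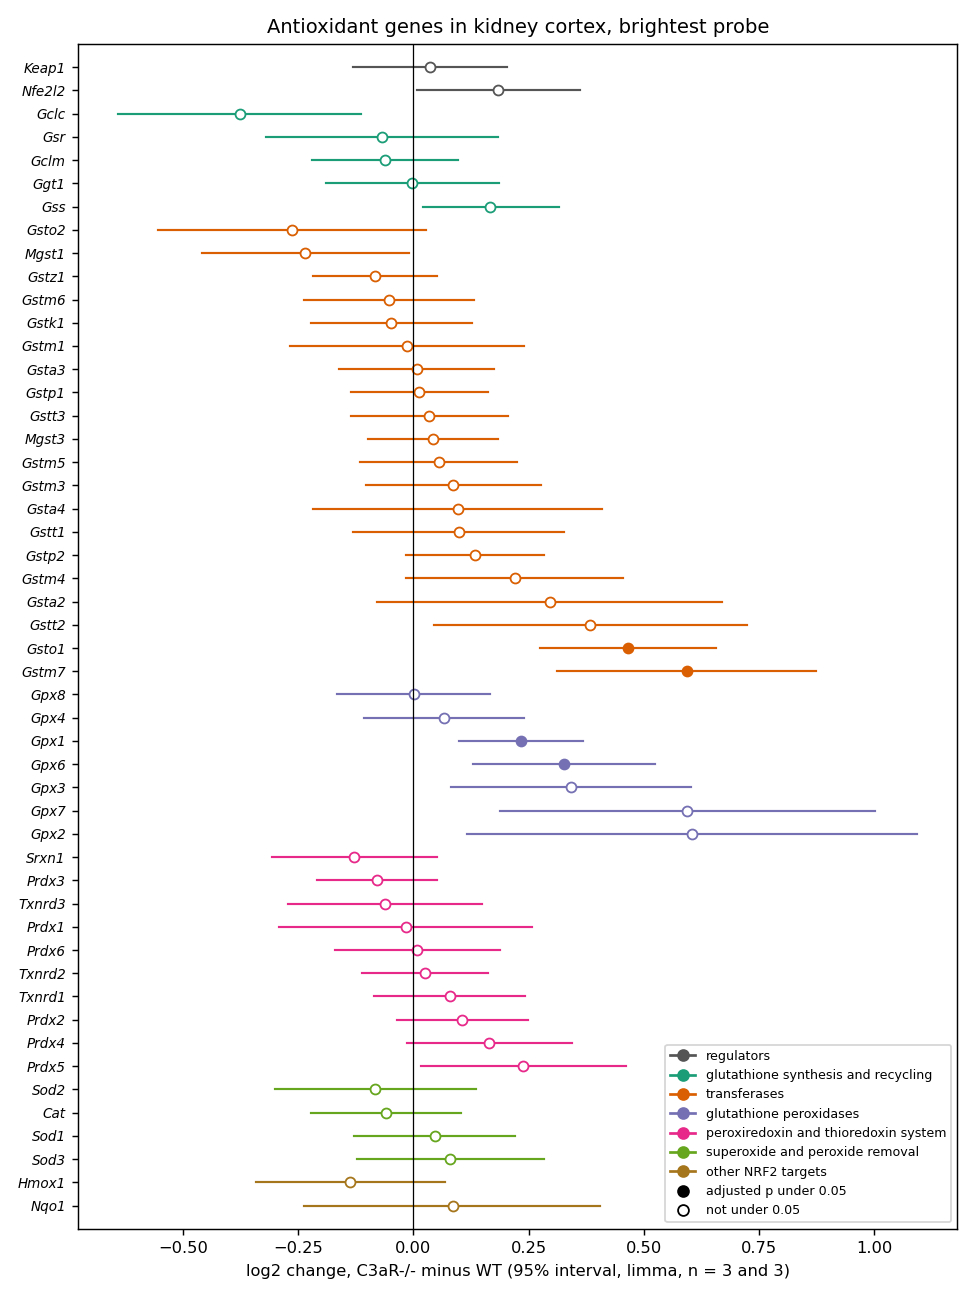
Log2 change (C3aR-/- minus WT, horizontal axis) of the 50 tested members, grouped by role, with the 95% interval of the limma fit over 3 and 3 arrays. Filled points mark the 4 members with an adjusted p under 0.05, Gstm7 and Gsto1 among the transferases and Gpx1 and Gpx6 among the glutathione peroxidases; most intervals of the other groups cross 0.

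The stretch around each gene's start was read for the core of the antioxidant response element, the element on which NRF2 acts. Elements further from the start were not read. The window runs from 250 bases before the start to 50 after it, in RefSeq's promoter table of assembly GRCm38.p6, which matched 47 of the 56 members. Not matched were Gclc, Gpx2-ps1, Gsr, Gsta4, Gstt2, Hmox1, Prdx6, Prdx6b and Sod3. The letters searched were TGACNNNGC, on either strand. They occurred in at least 1 window of 11 of the 47 members (23.4%) and of 3781 of the 27025 genes in the table (13.99%). Counted by window of that length, they occurred in 20.31% of the 64 member windows and 12.39% of all 32851. The 11 members were Gclm, Ggt1, Gsta3, Gstm5, Gstm7, Mgst1, Nfe2l2, Prdx1, Sod1, Srxn1 and Txnrd1. The longer form, with an A after these letters, occurred in Gsta3 and Txnrd1, 4.26% of members and 3.45% of all genes.

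A promoter is printed below for the called member with the core (Gstm7) and for the called member with the smallest p (Gsto1), which had none. Nfe2l2 is printed as the regulator, and Txnrd1 as a well known target with the longer form. Each is read 5′ to 3′ on the gene's own strand, with the core in capitals, on either strand. Gstm7 lies at chr3:107931565-107931864 on the minus strand, Gsto1 at chr19:47854723-47855022 on the plus strand, Nfe2l2 at chr2:75704614-75704913 on the minus strand and Txnrd1 at chr10:82858956-82859255 on the plus strand, all on GRCm38.p6. Gstm7 has 2 windows and Txnrd1 3 in the table, and the one with the core is printed.
Gstm7: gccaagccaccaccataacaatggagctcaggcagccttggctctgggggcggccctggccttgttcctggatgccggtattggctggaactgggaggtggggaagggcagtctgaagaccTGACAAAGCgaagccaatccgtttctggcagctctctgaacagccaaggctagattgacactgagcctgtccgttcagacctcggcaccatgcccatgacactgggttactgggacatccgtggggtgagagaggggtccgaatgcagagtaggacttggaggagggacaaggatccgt
Gsto1: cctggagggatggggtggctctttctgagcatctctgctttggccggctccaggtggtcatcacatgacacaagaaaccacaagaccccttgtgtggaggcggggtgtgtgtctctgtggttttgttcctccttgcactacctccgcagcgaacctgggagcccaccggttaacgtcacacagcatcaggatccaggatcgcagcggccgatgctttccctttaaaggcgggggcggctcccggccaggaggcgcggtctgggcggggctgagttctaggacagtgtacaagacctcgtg
Nfe2l2: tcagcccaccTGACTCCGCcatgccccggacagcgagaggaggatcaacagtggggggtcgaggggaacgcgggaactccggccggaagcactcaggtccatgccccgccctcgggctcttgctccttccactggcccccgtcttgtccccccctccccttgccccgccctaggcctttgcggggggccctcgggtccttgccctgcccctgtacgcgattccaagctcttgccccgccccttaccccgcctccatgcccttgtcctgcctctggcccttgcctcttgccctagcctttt
Txnrd1: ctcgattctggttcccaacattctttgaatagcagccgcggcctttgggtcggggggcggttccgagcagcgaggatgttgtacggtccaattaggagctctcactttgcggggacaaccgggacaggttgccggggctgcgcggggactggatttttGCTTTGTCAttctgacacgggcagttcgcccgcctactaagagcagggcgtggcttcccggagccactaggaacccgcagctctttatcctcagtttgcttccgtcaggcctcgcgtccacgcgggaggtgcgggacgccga
The core begins 129 bases before the start in Gstm7 and 240 before it in Nfe2l2, and the match of Txnrd1, on the opposite strand, lies 92 bases before the start. The match in Gstm7 (TGACAAAGC) and that in Txnrd1, read on its own strand, have the same letters. A match describes letters, not binding.

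The changes of members with and without the core are given side by side, and their difference was not tested. The split goes by letters in this window and does not part NRF2 targets from other genes. Nqo1, for one, falls among the members without the core. All 11 with it were tested, 1 was called and their median change was 0.01, with a range from -0.24 to 0.59. Of the members in the table without it, 32 were tested, 3 were called and the median change was 0.08.

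The regulators came first in the order of roles. Nfe2l2, the gene of NRF2 itself, read 3.37, 3.40 and 3.46 in WT and 3.64, 3.48 and 3.66 in C3aR-/- cortex. All 3 C3aR-/- arrays were above the WT arrays, but the difference of 0.18 (SE 0.07, 1.14-fold) was not called (limma adjusted p = 0.137). A second Nfe2l2 probe, assigned to the transcript ENSMUST00000152371 and lying 15.52 kb away on chromosome 2, read -0.17, -0.12 and -0.17 in WT and 0.50, 0.42 and 0.27 in C3aR-/- cortex. It differed by 0.55, and passed in a fit over all 30930 probes (limma adjusted p = 0.0172), where 11.7% of all probes and 5 of the 71 member probes (7.04%) were called. Nfe2l2 was called with the mean of its probes (0.37, limma adjusted p = 0.0234) and with the second probe in place of the brightest (limma adjusted p = 0.0169). Keap1, the gene of the NRF2 inhibitor, had WT levels of 2.11 ± 0.10 and C3aR-/- levels of 2.15 ± 0.02 (SD, n = 3 each), a difference of 0.04 with a 95% interval from -0.13 to 0.20.

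The Nfe2l2 probes are printed because their readings differ, and those of Gsto1 because theirs are alike. For each, the first 30 of the 60 bases are given as the array file writes them.
Nfe2l2, brightest probe: ctcaagttaatttcttaggcaccatttggg
Nfe2l2, ENSMUST00000152371 probe: gtgctctgtcacctttaatatcacaacaat
Gsto1, brightest probe: ccatccccaaggccatcacctctggtttga
Gsto1, second probe: catcctctcacaaaattgatgccaagacct
On mouse build mm9 the brightest Nfe2l2 probe lies at chr2:75513771-75513830 and the other at chr2:75529291-75529350. No annotation of that build was used, so exon or UTR is not stated for any probe. Over all 3486 pairs of the 84 member probes, the longest run of bases shared was 13, between probes of Txnrd2 and Gstp2. Probes were compared only with each other, so this cannot tell whether a probe also matches another gene's transcript.

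Genes of glutathione synthesis and recycling gave 0 calls among 5 tested, with 1 positive difference and 4 negative. With 14.4% of all genes tested called, so few members cannot set this role apart. Gclc, the catalytic subunit of glutamate-cysteine ligase, which sets the rate of glutathione synthesis, read 4.48, 4.24 and 4.39 in WT and 4.16, 3.84 and 3.98 in C3aR-/- cortex. Every C3aR-/- array was below every WT array, and the difference of -0.38 (SE 0.11, 95% interval from -0.64 to -0.11) was not called (limma adjusted p = 0.0685). It was called only when the variance was allowed to follow the signal (limma trend, adjusted p = 0.0344). Gclm, the modifier subunit of the same enzyme, had WT levels of 5.0 ± 0.07 and C3aR-/- levels of 4.94 ± 0.04 (SD, n = 3 each), so its difference was -0.06. The difference between the subunits' changes was not tested.

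Gss, glutathione synthetase, catalyses the last step and read 5.26, 5.30 and 5.29 in WT and 5.38, 5.49 and 5.49 in C3aR-/- cortex. Its difference of 0.17 (SE 0.06) exceeded the spread between arrays without passing the test (limma adjusted p = 0.115), and a second probe gave 0.22. Gsr, glutathione reductase, which returns oxidised glutathione to its reduced form, differed by -0.07 (SE 0.10). Ggt1, the brush border enzyme that begins the breakdown of extracellular glutathione, had levels of 4.87 ± 0.10 in WT and 4.87 ± 0.08 in C3aR-/- cortex (SD, n = 3 each). The 95% interval of its difference ran from -0.19 to 0.19.

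The glutathione transferases, which join glutathione to electrophiles, held 2 of the calls among 20 tested, with 14 positive and 6 negative differences. Over all genes tested, 14.4% were called. Gsto1, an omega class enzyme with thiol transferase and dehydroascorbate reductase activity, read 3.02, 3.12 and 3.17 in WT and 3.60, 3.66 and 3.46 in C3aR-/- cortex. The genotypes were well separated, and Gsto1 rose 1.38-fold (log2 change 0.47, SE 0.08, limma adjusted p = 0.0205). Its probe lies on mm9 at chr19:47939128-47939187. The second probe, 279 bases away, read 2.07, 2.16 and 2.28 in WT and 2.65, 2.67 and 2.46 in C3aR-/- cortex. That is a difference of 0.43, and both probes passed in the fit over all probes (limma adjusted p = 0.0253 and 0.0383). Gsto1 was called under 11 of 17 other ways of processing the data, which include leaving out each array in turn, with a change between 0.39 and 0.52 in all of them.

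Gsto2, the other omega enzyme, went the opposite way without being called. It read -2.17, -2.24 and -2.22 in WT and -2.34, -2.35 and -2.73 in C3aR-/- cortex (difference -0.26, SE 0.12, limma adjusted p = 0.18).

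Gstm7, a mu class transferase, read -2.62, -2.64 and -2.79 in WT and -1.87, -2.17 and -2.24 in C3aR-/- cortex. Every C3aR-/- array was above every WT array, C3aR-/- replicate 1 the most, and Gstm7 rose 1.51-fold (log2 change 0.59, SE 0.12, limma adjusted p = 0.0279). Without that array the change was 0.48 and was still called. Its probe spans chr3:107732073-107733247 on mm9, 1175 bases for a 60-base probe. A second Gstm7 probe was not well above background on any array. Gstm7 was called under 10 of 17 other ways of processing, and normexp background correction gave its smallest change, 0.37.

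The other mu class genes were not called. Gstm4 read 0.72, 0.74 and 0.64 in WT and 1.07, 0.94 and 0.75 in C3aR-/- cortex, a difference of 0.22 (limma adjusted p = 0.17), and Gstm3 differed by 0.09. Gstm1, Gstm5 and Gstm6 differed by -0.01, 0.05 and -0.05. The 2 probes of Gstm1 map to different chromosomes on mm9, the brightest to chromosome 5 and the other, which gave 0.26, to chromosome 3, where Gstm7 lies too. Gstm2 was not tested because its spot was marked as an outlier on C3aR-/- replicate 1. With that spot kept it read 2.76, 2.82 and 2.91 in WT and 1.37, 2.88 and 2.80 in C3aR-/- cortex, so that 1 marked spot makes the difference of -0.48 (limma adjusted p = 0.447).

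No alpha class gene was called. Gsta2 read 5.20, 4.97 and 5.18 in WT and 5.66, 5.47 and 5.11 in C3aR-/- cortex, overlapping ranges with a difference of 0.30 (SE 0.15, limma adjusted p = 0.23). Gsta4, which acts on the lipid peroxidation product 4-hydroxynonenal, differed by 0.10, and Gsta3 by 0.01. The alpha, mu and pi classes hold close paralogs, so their probes may read more than 1 gene.

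In the theta class, Gstt2 read 3.54, 3.94 and 3.96 in WT and 4.18, 4.35 and 4.07 in C3aR-/- cortex, a difference of 0.38 (SE 0.14) that was not called (limma adjusted p = 0.117). A second Gstt2 probe, from a cDNA clone, read 0.74, -0.28 and -0.06 in WT and 1.70, 1.02 and 1.39 in C3aR-/- cortex, a larger difference of 1.24 (limma adjusted p = 0.052 over all probes). Averaging both probes gave a call for Gstt2. Gstt1, Gstt3, Gstp1, Gstp2, Gstk1 and Gstz1 had differences between -0.08 and 0.13, with 0 calls. Gstp2 had the highest of them and Gstz1 the lowest. Gstt4 was below the detection limit throughout and was not tested.

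Of the microsomal transferases, membrane enzymes of a separate family, Mgst1 read 3.99, 4.06 and 4.01 in WT and 3.95, 3.77 and 3.64 in C3aR-/- cortex (difference -0.24, limma adjusted p = 0.137). A second probe 175 bases away went the other way, with 2.68, 2.66 and 2.45 in WT and 3.12, 2.86 and 2.75 in C3aR-/- cortex (difference 0.31). The data therefore give no direction for Mgst1. Mgst3 differed by 0.04. Mgst2 was well above background on 0 WT arrays and 2 C3aR-/- arrays and was not tested.

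**Figure D2:**
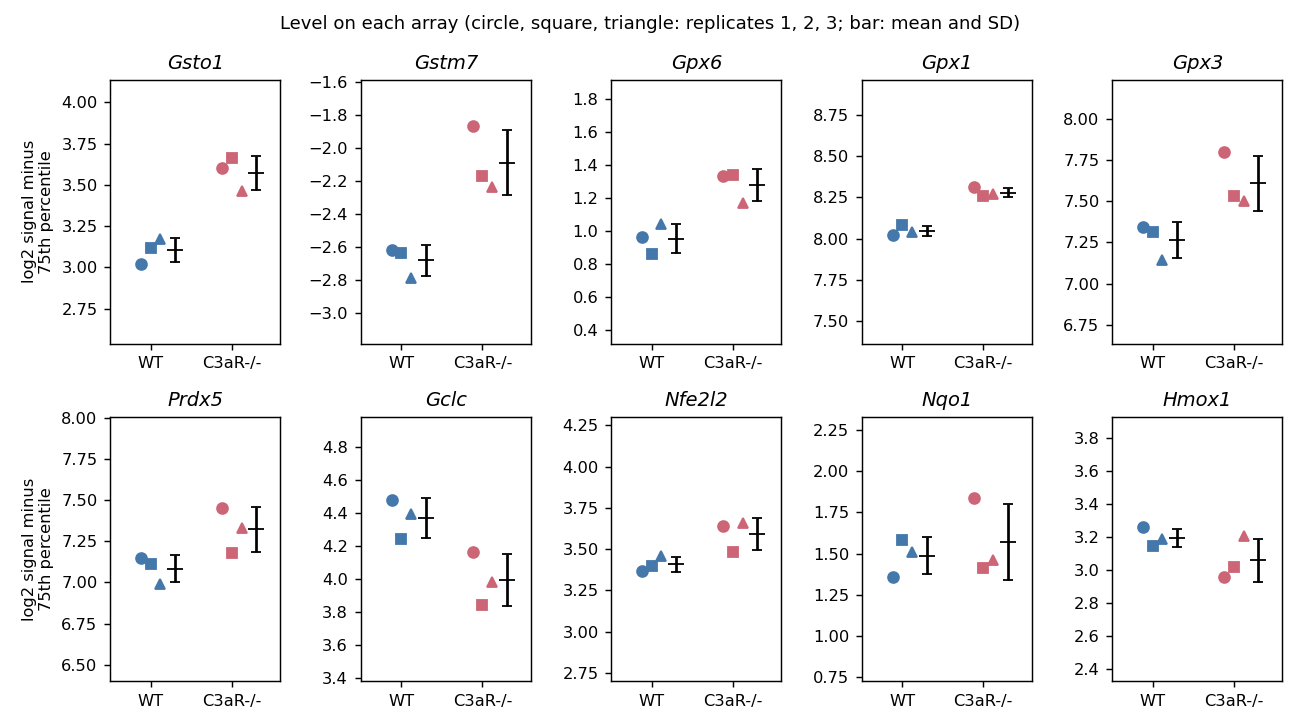
Level on each array (log2 signal minus the array's 75th percentile, vertical axis) of the 4 called members, Gpx3, Prdx5, Gclc, Nfe2l2, Nqo1 and Hmox1, in 3 WT and 3 C3aR-/- arrays, with mean and SD; all panels span the same log2 range. The genotypes are separate in every panel but those of Nqo1 and Hmox1, and of the separate panels Gclc is the one with C3aR-/- below WT.

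The glutathione peroxidases, which reduce peroxides at the expense of glutathione, held the other 2 calls among 7 tested, where 14.4% of all genes were called. All 7 tested members had positive differences, with a median of 0.33, where 10814 of all 20553 genes had positive ones. Of the 7, Gpx2 passed the filter only through the C3aR-/- arrays, where it was higher, so the filter favoured its sign. Gpx8 counted as positive at 0.001. With quantile normalisation 6 of the 7 were positive, since Gpx4 gave -0.05, and with the log2 values the authors deposited, 5 were, since Gpx4 gave -0.08 and Gpx1 gave 0.

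Gpx1, the abundant cytosolic selenoenzyme, read 8.02, 8.08 and 8.04 in WT and 8.31, 8.26 and 8.27 in C3aR-/- cortex. The ranges were apart, the SD was 0.03 in each genotype, and Gpx1 rose 1.18-fold (log2 change 0.23, SE 0.06, limma adjusted p = 0.0436). Median scaling gave 0.28, quantile normalisation 0.02 and the log2 values the authors deposited 0.00. Quantile normalisation and the deposited values give all arrays 1 shared distribution. Gpx1 ranked 2 to 3 in brightness among the genes tested on every array. Under a shared distribution its values could hardly differ between arrays, so these 2 alternatives do not test the change. Its probe lies on mm9 at chr9:108242276-108242335, and the gene was called under 4 of 17 other ways of processing.

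Gpx6, a relative of the plasma enzyme that is described in olfactory tissue, read 0.96, 0.86 and 1.04 in WT and 1.33, 1.34 and 1.17 in C3aR-/- cortex. The ranges were apart, and Gpx6 rose 1.25-fold (log2 change 0.33, SE 0.08, limma adjusted p = 0.0484). It was called under 5 of 17 other ways of processing, with changes from 0.22 to 0.38, and the probe lies on mm9 at chr13:21411049-21411108. Leaving out any 1 array gave adjusted p-values from 0.0709 to 0.123 for Gpx6 and from 0.0866 to 0.129 for Gpx1, and neither was called.

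Gpx3, the plasma enzyme that the proximal tubule secretes, read 7.34, 7.31 and 7.14 in WT and 7.80, 7.53 and 7.5 in C3aR-/- cortex. The arrays did not overlap, but the difference of 0.34 (SE 0.11) was not called (limma adjusted p = 0.0838). It was called with median scaling, with normexp background correction and with the variance trend. The difference was 0.14 with quantile normalisation and 0.10 with the deposited table. Gpx4, the enzyme that reduces lipid hydroperoxides in membranes and restrains ferroptosis, had levels of 6.64 ± 0.09 in WT and 6.71 ± 0.05 in C3aR-/- cortex (SD, n = 3 each). Its difference of 0.07 had a 95% interval from -0.11 to 0.24.

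Larger differences came from dim probes. Gpx7, a peroxidase of the endoplasmic reticulum, read -3.82, -3.89 and -3.51 in WT and -3.17, -2.86 and -3.40 in C3aR-/- cortex, a difference of 0.59 (SE 0.17) that was not called (limma adjusted p = 0.0654). Gpx2, the gastrointestinal form, was well above background on 2 of the 3 WT arrays. It read -4.73, -5.42 and -5.08 in WT and -4.44, -4.27 and -4.71 in C3aR-/- cortex, so its 0.61 (SE 0.20, limma adjusted p = 0.0957) lies near the limit of detection. With normexp background correction the differences were 0.06 for Gpx2 and 0.27 for Gpx7. Gpx8, also of the endoplasmic reticulum, differed by 0.00. Gpx5 and the pseudogene Gpx2-ps1 were not well above background on any array.

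The peroxiredoxins, which reduce peroxides through their own cysteines, and the thioredoxin enzymes that recycle them gave 0 calls among 10 tested, with 6 positive differences. Beside the 14.4% called over all genes tested, 0 among 10 does not set these genes apart. Prdx5, found in mitochondria, peroxisomes and cytosol, read 7.15, 7.11 and 6.99 in WT and 7.45, 7.18 and 7.33 in C3aR-/- cortex. All C3aR-/- arrays were higher, the difference was 0.24 (SE 0.09, limma adjusted p = 0.129), and the second probe gave 0.27. With quantile normalisation it was 0.09, and with the deposited values 0.05. Prdx4, the form of the secretory pathway, differed by 0.17 and Prdx2 by 0.11, without calls, and a second Prdx4 probe gave -0.10.

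Prdx3, the mitochondrial form, read 4.30, 4.34 and 4.36 in WT and 4.27, 4.24 and 4.25 in C3aR-/- cortex. The groups were apart by little, with a difference of -0.08 (SE 0.05). Prdx1, an NRF2 target of the cytosol, had levels of 6.90 ± 0.04 in WT and 6.88 ± 0.21 in C3aR-/- cortex (SD, n = 3 each), the wider SD coming from replicate 1 at 7.12 against 6.75 and 6.78. Its 3 other probes gave -0.07 to -0.03. Prdx6, which also has phospholipase activity, differed by 0.01. Prdx6b was not well above background on any array.

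Srxn1, sulfiredoxin, which repairs over-oxidised peroxiredoxins and is a strong NRF2 target, read 4.13, 4.19 and 4.06 in WT and 4.07, 3.90 and 4.03 in C3aR-/- cortex. The ranges met and the difference was -0.13 (SE 0.07, limma adjusted p = 0.27). Txnrd1, the cytosolic thioredoxin reductase and another NRF2 target, differed by 0.08, and its second probe by -0.20. Txnrd2, the mitochondrial enzyme, differed by 0.02 at its brightest probe, and Txnrd3 by -0.06. A dimmer Txnrd2 probe 22.98 kb from the brightest read -2.40, -2.32 and -2.44 in WT and -2.06, -1.93 and -1.95 in C3aR-/- cortex. That difference of 0.41 passed in the fit over all probes (limma adjusted p = 0.0247), and another probe gave 0.07.

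Superoxide dismutases and catalase, which turn superoxide into hydrogen peroxide and then into water, gave 0 calls among 4 tested and no separation of the genotypes. The share called over all genes tested was 14.4%. Cat had levels of 5.30 ± 0.02 in WT and 5.24 ± 0.09 in C3aR-/- cortex (SD, n = 3 each), and differed by -0.06. The cytosolic Sod1 differed by 0.05, the mitochondrial Sod2 by -0.08 and the extracellular Sod3 by 0.08, with adjusted p-values between 0.534 and 0.683 by limma. A second Sod1 probe, from a cDNA clone, gave 0.52 (limma adjusted p = 0.0592 over all probes).

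Nqo1 and Hmox1 are the genes most often read as a sign of NRF2 activity. Nqo1, a quinone reductase, read 1.36, 1.58 and 1.51 in WT and 1.84, 1.41 and 1.46 in C3aR-/- cortex. Only C3aR-/- replicate 1 was above the WT arrays, and the difference of 0.08 (SE 0.13, 95% interval from -0.24 to 0.41) was not called (limma adjusted p = 0.684). Hmox1, heme oxygenase 1, read 3.26, 3.15 and 3.19 in WT and 2.96, 3.02 and 3.21 in C3aR-/- cortex, overlapping ranges with a difference of -0.14 (SE 0.08, limma adjusted p = 0.299). Its 95% interval ran from -0.34 to 0.07.

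The probe that stood for a gene mattered for some members. Of 18 members with several probes that passed the filter, 11 had probes of 1 sign throughout. Gstm6, Mgst1, Prdx4 and Txnrd1 had probes of opposite sign past 0.05 in size on both sides.

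**Figure D3:**
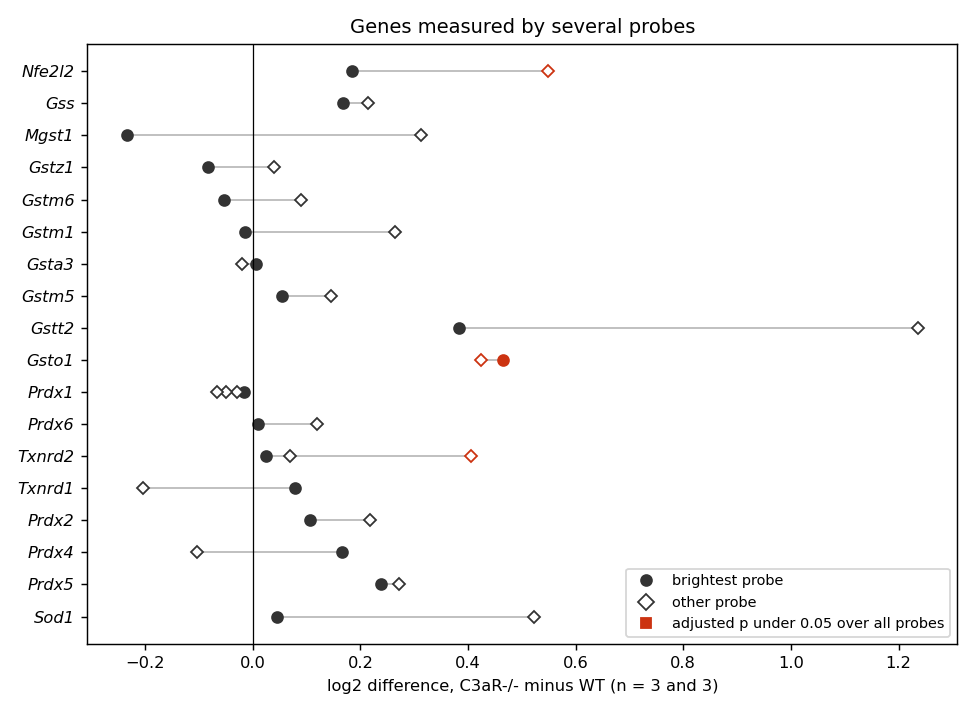
Log2 difference (C3aR-/- minus WT, horizontal axis) of each passing probe for the 18 members measured by several, filled circles for the brightest probe and diamonds for the others. Red marks the probes with an adjusted p under 0.05 over all probes: both of Gsto1, and the dimmer ones of Nfe2l2 and Txnrd2.

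Other genes of these pathways were read from 3 further lists, which share no gene with the members. Of 66 tested, 7 were higher and 1 lower (12.1%, against 14.4% of all genes), 52 differences were positive and the median was 0.14, against 10814 positive of 20553 and a median of 0.02 over all genes. Without 1 array, 1 to 3 of these genes were called: 1 without WT replicate 1 or C3aR-/- replicate 3, 2 without WT replicate 2 or C3aR-/- replicate 2, and 3 without WT replicate 3 or C3aR-/- replicate 1.

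Among 23 other genes of glutathione handling, 4 were higher and 0 lower, with a median of 0.14. Slc25a10, the dicarboxylate carrier of mitochondria, read 0.58, 0.55 and 0.31 in WT and 0.94, 0.96 and 1 in C3aR-/- cortex, and rose by 0.49 (SE 0.09, limma adjusted p = 0.0235). Glrx2, a mitochondrial glutaredoxin, read 7.08, 7.05 and 6.93 in WT and 7.60, 7.36 and 7.40 in C3aR-/- cortex, and rose by 0.44 (SE 0.09, limma adjusted p = 0.03), although a second probe gave -0.15. Slc3a2, the heavy chain of several amino acid exchangers including that for cystine, rose by 0.32 (limma adjusted p = 0.0483), with other probes at 0.36 and -0.41. Slc7a11, the light chain of the cystine exchanger, was not tested, since 1 of its 4 probes was well above background on 1 array. Glo1, the glyoxalase that uses glutathione to clear methylglyoxal, rose by 0.29 (limma adjusted p = 0.047), with other probes at 0.17 and 0.02.

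Of 14 other genes of the thioredoxin and peroxide system, 2 were higher and 0 lower. Park7, the gene of the oxidant sensor DJ-1, read 5.98, 6.07 and 5.93 in WT and 6.39, 6.39 and 6.37 in C3aR-/- cortex, and rose by 0.39 (SE 0.06, limma adjusted p = 0.0181), with a second probe at 0.44. Sesn1, a stress-induced sestrin, read 0.61, 0.39 and 0.40 in WT and 0.97, 0.89 and 0.87 in C3aR-/- cortex, and rose by 0.45 (SE 0.08, limma adjusted p = 0.0252).

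Of 29 other NRF2 targets and partners, 1 was higher and 1 lower. Sqstm1, the gene of p62, which binds KEAP1 and is itself an NRF2 target, read 6.02, 6.18 and 6.04 in WT and 6.49, 6.41 and 6.54 in C3aR-/- cortex. It rose by 0.40 (SE 0.07, limma adjusted p = 0.0242), with other probes at 0.37 and -0.13. Pgd, an enzyme of the pentose phosphate pathway that supplies NADPH, read 3.48, 3.44 and 3.41 in WT and 3.22, 3.05 and 3.06 in C3aR-/- cortex and fell by 0.33 (SE 0.07, limma adjusted p = 0.032).

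At their brightest probes, all tested markers of tubule cells had positive differences. Other probes gave -0.30 for Slc7a13, -0.27, 0.29 and -0.45 for Atp11a, and -0.04 and -0.01 for Calb1. The other probes of the remaining tubule markers were positive. Among 8 markers of the first proximal tubule segments 3 were higher and 0 lower, led by Slc6a19 (1.12, limma adjusted p = 0.00612) and Slc5a12 (0.73, limma adjusted p = 0.00813). The log2 of their summed signal ran from 9.17 to 9.29 in WT and from 9.41 to 9.45 in C3aR-/- cortex. In such a sum the brightest probes weigh most, here Slc34a1 (WT mean 7.5), and a dimmer marker such as Slc6a19 (WT mean 2.2) adds little. For 5 markers of the last proximal segment, 0 were called by limma, 1 (Slc5a1, 0.26) was higher at an unadjusted p under 0.05, and the summed level was 8.21 to 8.33 against 8.38 to 8.54. Of 8 distal nephron markers 3 were higher, of which Aqp2 (0.89) and Aqp3 (0.41) had the smallest limma p, with 8.11 to 8.20 against 8.27 to 8.35.

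Of 4 podocyte markers 0 were called by limma and 1 (Synpo, 0.20) was higher at an unadjusted p under 0.05, with 3.90 to 4.18 against 4.21 to 4.43. Other Synpo probes gave -0.60, 0.08 and 0.30. The 5 endothelial markers gave 1 higher, Pecam1 (0.51), and 1 lower, Kdr (-0.53), with 4.46 to 4.55 against 4.10 to 4.33. Of 6 macrophage markers 5 had negative differences, with 3.21 to 3.81 against 3.31 to 3.48. Cd68 (-0.58, second probe -0.64) was called lower. Cd14 (0.41) was called higher, although a second probe gave -0.53. Of 6 B and plasma cell markers 3 were lower, among them Jchain (-2.65) and Mzb1 (-0.69), with 1.67 to 2.14 against -0.26 to -0.06. Of 6 erythrocyte markers 4 had negative differences and Slc4a1 (-0.52) was called lower, with 8.47 to 8.64 against 8.52 to 8.77. Most of that summed level came from Hba-a1 (0.14) and Hba-a2 (0.17), the markers with positive differences. The adipocyte markers Adipoq, Plin1, Cidec and Ucp1 and the muscle markers Acta1 and Ckm did not pass the filter. The part of these markers in the members' differences was not tested.

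**Figure D4:**
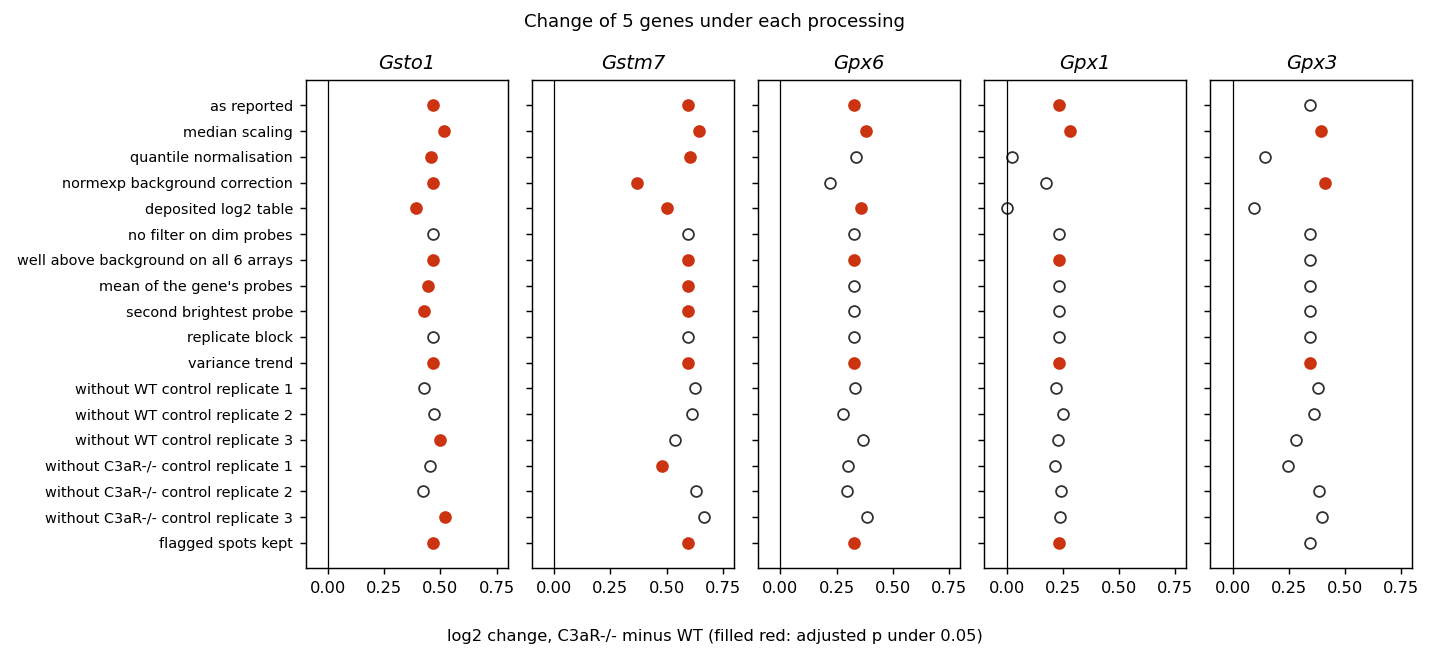
Log2 change (C3aR-/- minus WT, horizontal axis) of Gsto1, Gstm7, Gpx6, Gpx1 and Gpx3 as reported and under 17 other ways of processing or with 1 array left out (rows); red points have an adjusted p under 0.05. Gsto1 stays between 0.39 and 0.52. Gpx1 falls to 0.02 with quantile normalisation and to 0.00 with the deposited values, which both give all arrays 1 shared distribution and so hold the brightest probes nearly equal.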

How the data were processed

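RNA of 6 kidney cortex samples was measured on 1-colour Agilent arrays, and sample titles gave genotype and replicate. Per the file headers, the authors read the scans with Agilent Feature Extraction 10.7.1.1, whose deposited spot intensity (processed signal) has its background subtracted; mean and local background intensity and flags came with it. A log2 table of these arrays was deposited too. Its columns have 1 shared distribution (median 5.379, sorted values within 0.000903) and correlate at 0.9947 to 0.9960 with the scanner values of the array they belong to. The sources used here do not give its further steps or centring, and it served as an alternative only.

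Here, the log2 processed signal of each spot was set against the 75th percentile of the transcript spots on its array. Outlier-marked spots were left out (106 probes lost) and spots of a probe averaged, which left 30930 of 56605 probes past the filter. Symbols were updated through RefSeq (GRCm38.p6, names only, 32994 probes matched), and probe coordinates are those of the array files (mm9). Genotypes were compared with limma 3.58.1 (lmFit, eBayes) in R 4.3.3, after the fit was tested on simulated data. The number of arrays, 3 per genotype, limits the precision. The members and lists were chosen with earlier results of these data known. Named are all called members, a fixed set of role genes, the 3 largest differences of each family, called genes of the pathway lists and up to 2 markers per cell type list by smallest p. Protein sequences were not compared. The 17 alternatives are in the closing section.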

Additional observations from a re-analysis of the deposited data

How the results depend on the processing

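The number of members higher in C3aR-/- cortex (4) was 2 with quantile normalisation, 0 without the filter on dim probes and 0 to 1 with 1 array left out. Members lower (0) became 1, Gclc, with a variance trend. The members' median (0.044) was 0.096 with median scaling, which also moved the median of all genes from 0.016 to 0.067 and the share of calls that were higher from 49.2% to 63.3%, and 0.083 with the second brightest probe. Of all genes, 2954 were called, 925 without the filter and 737 to 1696 with 1 array left out, and the 8 called pathway genes became 1 to 3. The 10-base motif occurred in 4.26% of members in place of 23.4%. Same-numbered arrays deviated together in no clear way (correlations 0.0385, -0.0288 and -0.0718, and only number 1 correlated best with its own), so the numbers were not taken as pairs; the replicate block gave 654 called genes and 0 members. Keeping marked spots, an alternative chosen after seeing the data, gave 4 members. The causes of these shifts were not tested.

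Over 849 values of the 50 tested members, 748 kept direction and side of the threshold, among them uncalled members that stayed uncalled. Another 7 gained a call and 56 turned direction, in 22 uncalled genes, and 0 of the turned values had an adjusted p under 0.05. Only called members could lose a call, and 38 of their values did. Of 17 alternatives each, Gpx1 lost it in 13, Gpx6 in 12, Gstm7 in 7 and Gsto1 in 6. Median scaling turned Ggt1 (0.049), Gstk1 (0.004), Gstm1 (0.037) and Prdx1 (0.035). Quantile normalisation turned Gpx4 (-0.046), Gsta3 (-0.020), Gstm5 (-0.015), Prdx6 (-0.064) and Sod1 (-0.094). The deposited table turned Ggt1 (0.034), Gpx4 (-0.075), Gsta3 (-0.019), Gstm5 (-0.002), Gstp2 (-0.015), Prdx6 (-0.044) and Sod1 (-0.071). Normexp turned Gclm (0.041), Ggt1 (0.022), Gsta3 (-0.017) and Gstm6 (0.033). The mean of the probes turned Gsta3 (-0.006), Gstm1 (0.125), Gstm6 (0.018), Mgst1 (0.039) and Txnrd1 (-0.062). The second brightest probe turned Gsta3 (-0.019), Gstm1 (0.264), Gstm6 (0.089), Gstz1 (0.041), Mgst1 (0.312), Prdx4 (-0.103) and Txnrd1 (-0.203). With 1 array left out, the ranges that crossed 0 were Ggt1 -0.056 to 0.041, Gpx8 -0.028 to 0.045, Gsta3 -0.047 to 0.036, Gsta4 -0.017 to 0.198, Gstk1 -0.097 to 0.001, Gstm1 -0.103 to 0.082, Gstm6 -0.093 to 0.012, Gstp1 -0.015 to 0.039, Keap1 -0.010 to 0.085, Nqo1 -0.048 to 0.163, Prdx1 -0.136 to 0.049, Prdx6 -0.046 to 0.059, Sod1 -0.007 to 0.077 and Txnrd3 -0.115 to 0.002.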

Other observations

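Some genes of the pathway lists differed by more than most members without being called, and 3 are given here, chosen after their values were seen. Sesn2, a sestrin induced by amino acid shortage and oxidants, read 2.22, 1.66 and 1.85 in WT and 2.77, 2.44 and 3.25 in C3aR-/- cortex, with no overlap and a difference of 0.91 (SE 0.24, limma adjusted p = 0.0566). Chac1, an enzyme that breaks down glutathione and is induced by the integrated stress response, read -1.94, -2.30 and -2.31 in WT and -2.09, -1.09 and -0.57 in C3aR-/- cortex. Its difference of 0.93 (SE 0.38, limma adjusted p = 0.147) came with overlapping ranges. Cbr1, a carbonyl reductase of the NRF2 target list, read 2.36, 2.41 and 2.48 in WT and 3.15, 2.90 and 2.67 in C3aR-/- cortex, a difference of 0.49 (SE 0.13, limma adjusted p = 0.0528) without overlap.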
